A study of Mus musculus with 16 samples.

Results

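DNA methylation and histone methylation are written and removed by a small set of enzymes, and the transcripts of 10 of their genes were followed here across a knockdown of the transcription factor gene Cebpb and stimulation with isoproterenol in mouse macrophage-like cells. The genes were Dnmt1, Uhrf1, Dnmt3a, Dnmt3b, Tet2, Tet3, Ezh2, Suz12, Eed and Dot1l, taken by their symbols from 52636 gene entries. All 10 were above the detection floor in every library and were among the 11044 genes tested.

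Methyl groups on cytosine are placed at new sites by Dnmt3a and Dnmt3b and are copied to the new strand after each round of DNA replication by Dnmt1, which Uhrf1 guides to hemimethylated sites. Tet2 and Tet3 oxidise the methyl group, the first step of its removal, and Tet2 is known in macrophages and other blood cells as a brake on inflammatory genes and as a common target of mutation in clonal blood disease. Ezh2 is the catalytic subunit of Polycomb repressive complex 2 (PRC2), which methylates lysine 27 of histone H3, and needs Suz12 and Eed for activity, whereas Dot1l methylates lysine 79 of histone H3 in transcribed genes.

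RAW 264.7 cells, a transformed mouse macrophage-like line that divides in culture, were transfected with siRNA at 25 nM, and stimulation followed 24 h later. The 4 groups were Cebpb siRNA with isoproterenol (a β-adrenergic agonist), Cebpb siRNA with no agent, control siRNA with isoproterenol, and control siRNA with no agent, and all of them therefore went through transfection. Each group held 4 libraries of 3′ end reads, 2 from each of 2 experiments, which the design text calls biological replicates. The title names the question as what C/EBPβ does to genes of alternative activation under β-adrenergic stimulation. A single siRNA product was used against Cebpb, so an effect of that product on other transcripts and an effect of lower C/EBPβ cannot be told apart. Transcripts alone were measured, without protein, DNA methylation or histone marks, and the dose and duration of isoproterenol were not given in the sources used here.

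Levels are in reads per M of all sequenced reads (RPM, where M stands for mega), on the scale of the deposited values, and fold changes come from values rescaled between libraries. Depth was 9.42 to 25.2 M reads per library, lowest in a Cebpb siRNA library of experiment 2, and a level of 1 RPM or less is listed as 0. Cebpb itself had 28.5, 27.6, 25.8 and 23.9 RPM in the Cebpb siRNA + isoproterenol libraries and 11.8, 25.0, 21.8 and 33.1 RPM in the Cebpb siRNA libraries. It had 100.6, 78.0, 99.1 and 90.6 RPM with control siRNA + isoproterenol and 74.5, 61.3, 81.4 and 87.3 RPM with control siRNA, so no knockdown library reached the control range. All 10 macrophage markers were detected, with a summed level of 1605 to 2621 RPM, and all markers of fibroblasts, epithelial cells and B cells were listed at 0. Of the other markers, Lck among 6 of T and NK cells, S100a8 among 6 of neutrophils, and 2 of 5 of dendritic cells were above 1 RPM. Reads that did not map made up 5.9 to 7.36% in the Cebpb siRNA + isoproterenol libraries and 6.32 to 7.61% in the Cebpb siRNA libraries, against 5.07 to 5.81% and 5.14 to 5.94% in the control siRNA libraries with and without isoproterenol. The part of that difference in the results was not tested.

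The promoters of 4 of the genes carry a word of the motif bound by E2F factors, which regulate many genes of DNA replication, and are shown as the windows in which the search found a match. What the word does in these cells was not tested. The words searched on both strands were TTTCCCGC, TTTCGCGC, TTTGCCGC and TTTGGCGC, in the 300 bases that run 250 before to 50 after each start site in RefSeq (GRCm38.p6). All 10 genes had at least 1 such window, 15 in all. In these sequences, written 5′ to 3′ on the strand of the gene, capitals mark the word on either strand.
Dnmt1 (chr9:20952574-20952873, minus strand): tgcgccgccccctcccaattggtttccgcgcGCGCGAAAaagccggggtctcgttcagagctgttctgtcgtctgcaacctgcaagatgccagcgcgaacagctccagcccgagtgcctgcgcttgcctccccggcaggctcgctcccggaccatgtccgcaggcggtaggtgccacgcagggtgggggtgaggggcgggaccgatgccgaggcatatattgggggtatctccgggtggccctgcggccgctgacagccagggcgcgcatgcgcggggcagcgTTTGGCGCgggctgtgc
Uhrf1 (chr17:56304063-56304362, plus strand): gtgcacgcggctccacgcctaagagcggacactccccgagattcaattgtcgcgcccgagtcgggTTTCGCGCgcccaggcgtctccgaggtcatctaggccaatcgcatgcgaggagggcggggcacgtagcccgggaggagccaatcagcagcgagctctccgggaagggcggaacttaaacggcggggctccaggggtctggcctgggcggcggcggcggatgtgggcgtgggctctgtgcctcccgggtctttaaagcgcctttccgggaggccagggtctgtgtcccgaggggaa
Ezh2 (chr6:47594981-47595280, minus strand): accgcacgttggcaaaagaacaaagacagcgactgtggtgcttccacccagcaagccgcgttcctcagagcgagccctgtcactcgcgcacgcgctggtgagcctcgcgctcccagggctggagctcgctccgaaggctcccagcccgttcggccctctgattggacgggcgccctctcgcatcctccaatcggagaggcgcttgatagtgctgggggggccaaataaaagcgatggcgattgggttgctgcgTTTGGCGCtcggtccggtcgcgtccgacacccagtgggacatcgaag
Suz12 (chr11:79992856-79993155, plus strand): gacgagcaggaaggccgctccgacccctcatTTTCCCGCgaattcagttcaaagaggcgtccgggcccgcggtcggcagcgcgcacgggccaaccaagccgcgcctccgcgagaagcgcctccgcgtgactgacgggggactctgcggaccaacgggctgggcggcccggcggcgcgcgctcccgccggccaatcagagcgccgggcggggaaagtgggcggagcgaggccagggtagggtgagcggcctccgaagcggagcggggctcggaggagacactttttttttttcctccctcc

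The word stood in these 4 of 10 genes, a share of 40.0%, against 5.06% of 8376 tested genes with a window. It was found in 1 of 3 annotated start windows of Dnmt1, which held it at both ends, and in 1 of 2 of Uhrf1. Among the genes of DNA replication 12 of 30 with a window held it, also 40.0%. Shares by gene depend on the number of windows, which was 15 for the 10 genes and 10675 for the 8376, and 4.21% of those 10675 held it. The 10 genes and the list were chosen with earlier results of these data known, so the shares are a description. The windows of Dnmt3b and Dot1l, which fell as well, and of Dnmt3a, Tet2, Tet3 and Eed held none of these letters. The C/EBP word TTGCGCAA was in no member and in 0.382% of tested genes, and its gapped form TTGCNNAA, of which the first word is 1 case, was in no member and in 10.1% of tested genes. The full cAMP response element TGACGTCA was in no member and in 3.92% of genes, and its core TGACG, which the full element contains, was in Tet2 and Suz12 and in 37.5% of genes. A match is a run of letters and not a shown binding site, and reads from the 3′ end do not tell which start site was used.

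**Figure D1:**
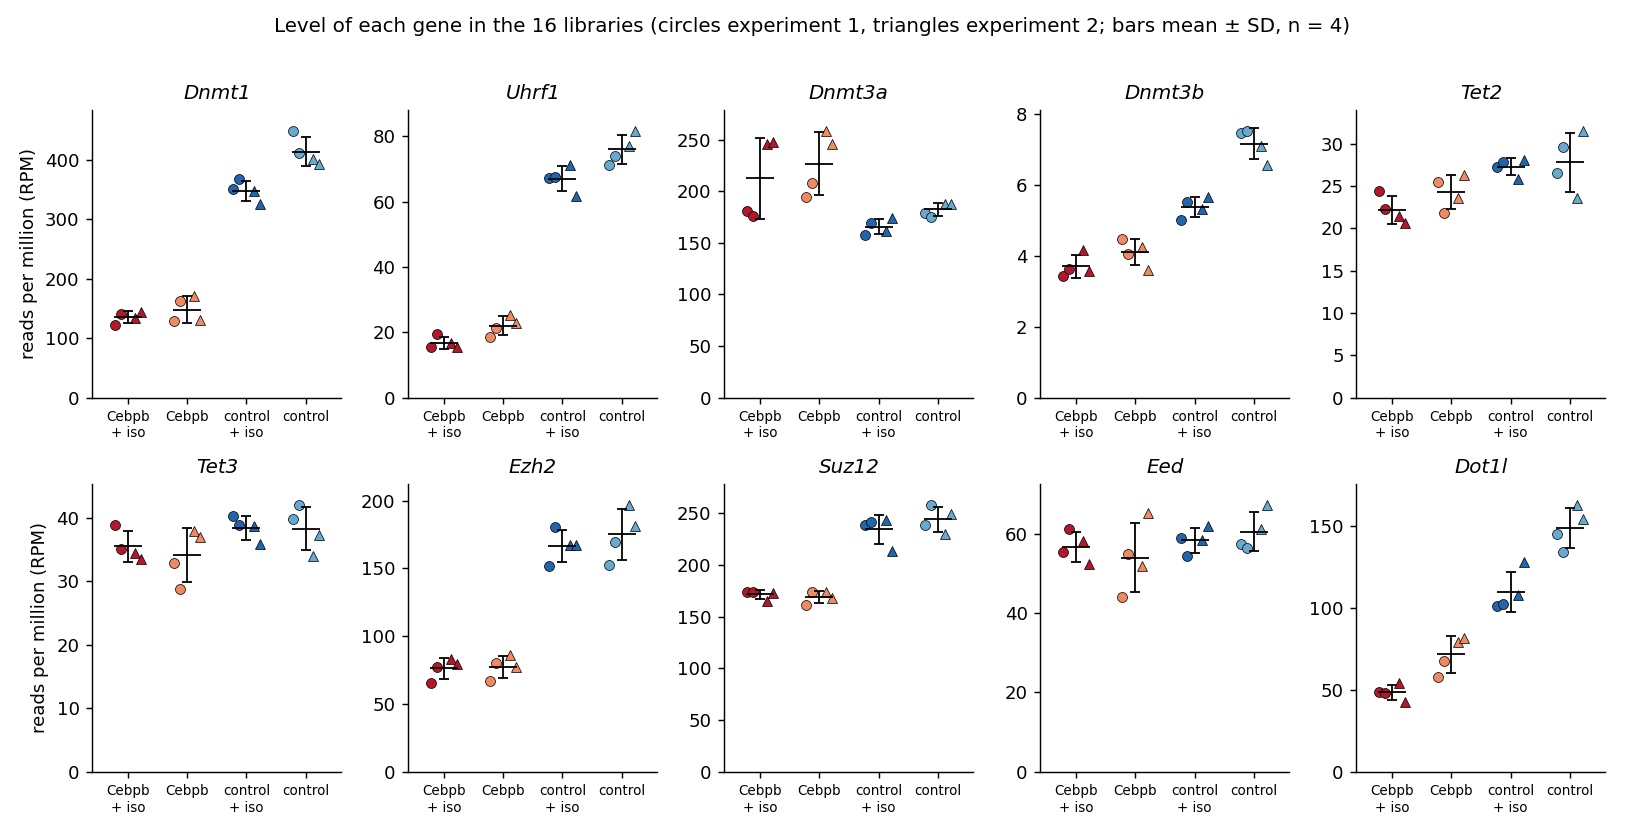
Level of each of the 10 genes in RPM (reads per M, linear axis from 0) in each library of the 4 groups, in the order Cebpb siRNA with isoproterenol, Cebpb siRNA, control siRNA with isoproterenol and control siRNA. Circles are experiment 1, triangles experiment 2, and bars give the mean and SD of 4 libraries. Dnmt1, Uhrf1, Dnmt3b, Ezh2, Suz12 and Dot1l had every Cebpb siRNA library below every control siRNA library, and Tet3 and Eed overlapped throughout.

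Cebpb siRNA lowered both genes of maintenance methylation, Ezh2 and Suz12 of PRC2, Dot1l and Dnmt3b, and raised Dnmt3a, while Tet2, Tet3 and Eed did not pass the test. Without isoproterenol 6 of the 10 genes fell and 1 rose (limma, Benjamini-Hochberg adjusted p under 0.05 over all tested genes). In the same fit 29.8% of all tested genes were called lower and 31.5% higher. The median log2 fold change of the 10 genes was −0.57, against 0.02 over all tested genes. With isoproterenol in both groups 7 fell and 1 rose, where 30.0% of all tested genes were called lower and 32.1% higher, and the median was −0.42 against 0.02. The extra gene was Tet2. In bulk RNA, fewer cells that express a gene and less of its RNA per cell cannot be told apart.

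Dnmt1, the maintenance methyltransferase (ENSMUSG00000004099.16, chr9:20907209-20959888, minus strand, GRCm38 as for all gene positions here), had the second largest fall of the 10. Dnmt1 had 122, 141, 135 and 145 RPM in the Cebpb siRNA + isoproterenol libraries, and 128, 162, 172 and 129.9 RPM in the Cebpb siRNA libraries. With control siRNA, Dnmt1 had 351, 367, 347 and 326 RPM under isoproterenol and 448, 411, 402 and 393 RPM without it. Every Cebpb siRNA library was below every control siRNA library, with a wide gap between them. Its level was 2.63-fold lower with Cebpb siRNA than with control siRNA (log2 fold change −1.40 ± 0.08 SE, limma adjusted p = 1.33e-12) and 2.44-fold lower when both had isoproterenol (−1.29 ± 0.08, adjusted p = 4.10e-12). Experiments 1 and 2 gave −1.52 and −1.27 without isoproterenol.

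Uhrf1, the reader of hemimethylated DNA that brings Dnmt1 to it (ENSMUSG00000001228.14, chr17:56303321-56323486, plus strand), had the largest fall. Uhrf1 had 15.5, 19.4, 16.6 and 15.6 RPM in the Cebpb siRNA + isoproterenol libraries, and 18.6, 21.3, 25.3 and 22.9 RPM in the Cebpb siRNA libraries. With control siRNA, Uhrf1 had 67.2, 67.6, 71.3 and 61.9 RPM under isoproterenol and 71.3, 74.1, 77.1 and 81.6 RPM without it. The knockdown libraries lay well below all control siRNA libraries in both experiments. The fall was 3.25-fold without isoproterenol (log2 −1.70 ± 0.09, limma adjusted p = 2.69e-13) and 3.81-fold with it (−1.93 ± 0.09, adjusted p = 3.08e-14). Of 11044 tested genes 1.27% had a more negative fold change than Uhrf1 without isoproterenol and 2.83% a more negative one than Dnmt1. Uhrf2, its paralog with no established role in maintenance, averaged 48.8 ± 4.63 RPM in Cebpb siRNA + isoproterenol and 49.3 ± 5.47 RPM in Cebpb siRNA libraries, against 61.9 ± 2.70 and 59.9 ± 1.06 RPM with control siRNA with and without isoproterenol (SD, n = 4 each). Its log2 fold change of −0.19 ± 0.08 without isoproterenol passed narrowly (limma adjusted p = 0.0490), and that with it was −0.27 ± 0.08 (adjusted p = 0.00590).

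Dnmt3a, a methyltransferase of new sites (ENSMUSG00000020661.15, chr12:3806007-3914443, plus strand), moved the other way. Dnmt3a had 181, 176, 246 and 248 RPM in the Cebpb siRNA + isoproterenol libraries, and 194, 208, 258 and 246 RPM in the Cebpb siRNA libraries. With control siRNA, Dnmt3a had 158, 169, 162 and 174 RPM under isoproterenol and 179, 175, 188 and 187 RPM without it. All 8 knockdown libraries were above the control siRNA libraries of the same treatment, and those of experiment 2 were higher than those of experiment 1. Dnmt3a rose 1.32-fold without isoproterenol (log2 0.40 ± 0.08, limma adjusted p = 0.000111), by 0.24 in experiment 1 and 0.56 in experiment 2. With isoproterenol it rose 1.33-fold (log2 0.42 ± 0.08, adjusted p = 7.02e-05), by 0.19 and 0.64. Its long and short proteins come from different start sites and share a 3′ end, so these reads cannot tell them apart. An antisense gene within it, Dnmt3aos, reached at most 1.61 RPM, and whether reads were counted by strand was not given in the sources used here.

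Dnmt3b, the other methyltransferase of new sites (ENSMUSG00000027478.15, chr2:153649450-153687730, plus strand), had few reads, 34 to 171 per library. Dnmt3b had 3.43, 3.62, 4.16 and 3.57 RPM in the Cebpb siRNA + isoproterenol libraries, and 4.47, 4.04, 4.25 and 3.61 RPM in the Cebpb siRNA libraries. With control siRNA, Dnmt3b had 4.996, 5.505, 5.32 and 5.66 RPM under isoproterenol and 7.45, 7.51, 7.10 and 6.57 RPM without it. The 4 groups were stacked in that order from lowest to highest mean, and only the 2 Cebpb siRNA groups overlapped each other. Dnmt3b fell 1.64-fold without isoproterenol (log2 −0.71 ± 0.12, limma adjusted p = 2.35e-05) and 1.38-fold with it (−0.47 ± 0.12, adjusted p = 0.00180). In experiment 2 alone the value with isoproterenol was −0.42 and no longer passed (adjusted p = 0.0769).

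Tet2, an oxidase of methylcytosine (ENSMUSG00000040943.12, chr3:133463679-133545139, minus strand), differed little. Tet2 had 24.4, 22.3, 21.4 and 20.6 RPM in the Cebpb siRNA + isoproterenol libraries, and 25.5, 21.8, 23.6 and 26.3 RPM in the Cebpb siRNA libraries. With control siRNA, Tet2 had 27.3, 27.9, 25.9 and 28.1 RPM under isoproterenol and 26.5, 29.6, 23.6 and 31.5 RPM without it. The groups overlapped without isoproterenol, whereas with isoproterenol all knockdown libraries were below all control siRNA libraries in deposited RPM and overlapped them slightly after rescaling. Its log2 fold change was −0.09 ± 0.09 without isoproterenol (limma adjusted p = 0.406, 95% interval −0.29 to 0.10). Tet2 fell 1.17-fold with isoproterenol (−0.23 ± 0.09, adjusted p = 0.0439), a call that was lost when any 1 of 7 of the 8 compared libraries was left out (adjusted p from 0.0540 to 0.102) and in either experiment alone (0.211 and 0.140).

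Tet3, the second Tet oxidase measured (ENSMUSG00000034832.15, chr6:83362373-83459084, minus strand), showed no difference past the test. Tet3 had 39.0, 35.1, 34.4 and 33.5 RPM in the Cebpb siRNA + isoproterenol libraries, and 32.9, 28.8, 38.0 and 36.9 RPM in the Cebpb siRNA libraries. With control siRNA, Tet3 had 40.4, 38.9, 38.7 and 35.8 RPM under isoproterenol and 39.8, 42.0, 34.0 and 37.3 RPM without it. All groups overlapped. The log2 fold change was −0.07 ± 0.10 without isoproterenol (limma adjusted p = 0.528, 95% interval −0.27 to 0.13) and −0.04 ± 0.10 with it (0.725, −0.24 to 0.16). The first of these joined opposite values, −0.36 in experiment 1 and 0.21 in experiment 2, and in experiment 1 alone Tet3 was called lower (adjusted p = 0.00966). Tet1, the third gene of the family, was listed at 0 in all libraries.

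Ezh2, the methyltransferase of PRC2 (ENSMUSG00000029687.16, chr6:47530139-47595341, minus strand), fell about as much with isoproterenol as without it. Ezh2 had 65.5, 77.4, 83.4 and 79.2 RPM in the Cebpb siRNA + isoproterenol libraries, and 66.7, 80.3, 86.0 and 77.0 RPM in the Cebpb siRNA libraries. With control siRNA, Ezh2 had 152, 180.2, 168 and 167 RPM under isoproterenol and 153, 169, 196 and 182 RPM without it. The highest knockdown library was far below the lowest control siRNA library. Ezh2 was 2.11-fold lower without isoproterenol (log2 −1.08 ± 0.07, limma adjusted p = 1.09e-11) and 2.08-fold lower with it (−1.06 ± 0.07, adjusted p = 1.41e-11), and the 2 experiments gave −1.08 and −1.08 without it. Ezh1, the alternative catalytic subunit and the main one in non-dividing cells, rose, with 28.8 ± 2.36 RPM in Cebpb siRNA + isoproterenol and 28.8 ± 5.05 RPM in Cebpb siRNA libraries, against 22.6 ± 3.16 RPM in control siRNA + isoproterenol and 22.4 ± 3.67 RPM in control siRNA libraries (SD, n = 4 each). Its log2 fold change was 0.46 ± 0.09 without isoproterenol (limma adjusted p = 0.000118).

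Suz12, the scaffold subunit that holds PRC2 together (ENSMUSG00000017548.15, chr11:79993106-80034123, plus strand), had a smaller fold change than Ezh2. Suz12 had 174, 174, 165 and 173 RPM in the Cebpb siRNA + isoproterenol libraries, and 162, 174, 174 and 168 RPM in the Cebpb siRNA libraries. With control siRNA, Suz12 had 238, 241, 244 and 214 RPM under isoproterenol and 239, 257, 230.1 and 249.6 RPM without it. The Cebpb siRNA groups with and without isoproterenol lay on top of each other, below both control siRNA groups. Suz12 fell 1.35-fold without isoproterenol (log2 −0.43 ± 0.06, limma adjusted p = 1.38e-06) and 1.30-fold with it (−0.38 ± 0.06, adjusted p = 8.15e-06).

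Eed, the subunit that binds the trimethylated product and stimulates the enzyme (ENSMUSG00000030619.9, chr7:89954654-89980983, minus strand), did not pass the test. Eed had 55.4, 61.1, 58.1 and 52.2 RPM in the Cebpb siRNA + isoproterenol libraries, and 44.1, 54.8, 51.8 and 65.2 RPM in the Cebpb siRNA libraries. With control siRNA, Eed had 58.8, 54.3, 58.4 and 61.8 RPM under isoproterenol and 57.5, 56.3, 61.1 and 67.1 RPM without it. All 4 groups overlapped, and the knockdown group without isoproterenol held both the lowest and nearly the highest library. The log2 fold change was −0.08 ± 0.09 without isoproterenol (limma adjusted p = 0.431, 95% interval −0.26 to 0.10) and 0.03 ± 0.09 with it (0.767, −0.15 to 0.21). Without the shallowest library, which was the highest of its group, the first value was −0.18 and passed (adjusted p = 0.0347). E230029C05Rik, on the opposite strand at the 5′ side of Eed, reached at most 5.09 RPM.

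Dot1l, the sole methyltransferase known for lysine 79 of histone H3 in mammals (ENSMUSG00000061589.14, chr10:80755206-80795461, plus strand), was lowered by Cebpb siRNA and by isoproterenol. Dot1l had 48.6, 48.3, 54.0 and 42.7 RPM in the Cebpb siRNA + isoproterenol libraries, and 57.9, 67.5, 79.5 and 81.5 RPM in the Cebpb siRNA libraries. With control siRNA, Dot1l had 101.4, 102, 108 and 128 RPM under isoproterenol and 145, 134, 162 and 154 RPM without it. The 4 groups did not overlap at all, with the lowest levels under knockdown and isoproterenol together and the highest in control siRNA cells with no agent. Cebpb siRNA lowered Dot1l 1.96-fold without isoproterenol (log2 −0.97 ± 0.08, limma adjusted p = 9.12e-10) and 2.16-fold with it (−1.11 ± 0.08, adjusted p = 9.55e-11).

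**Figure D2:**
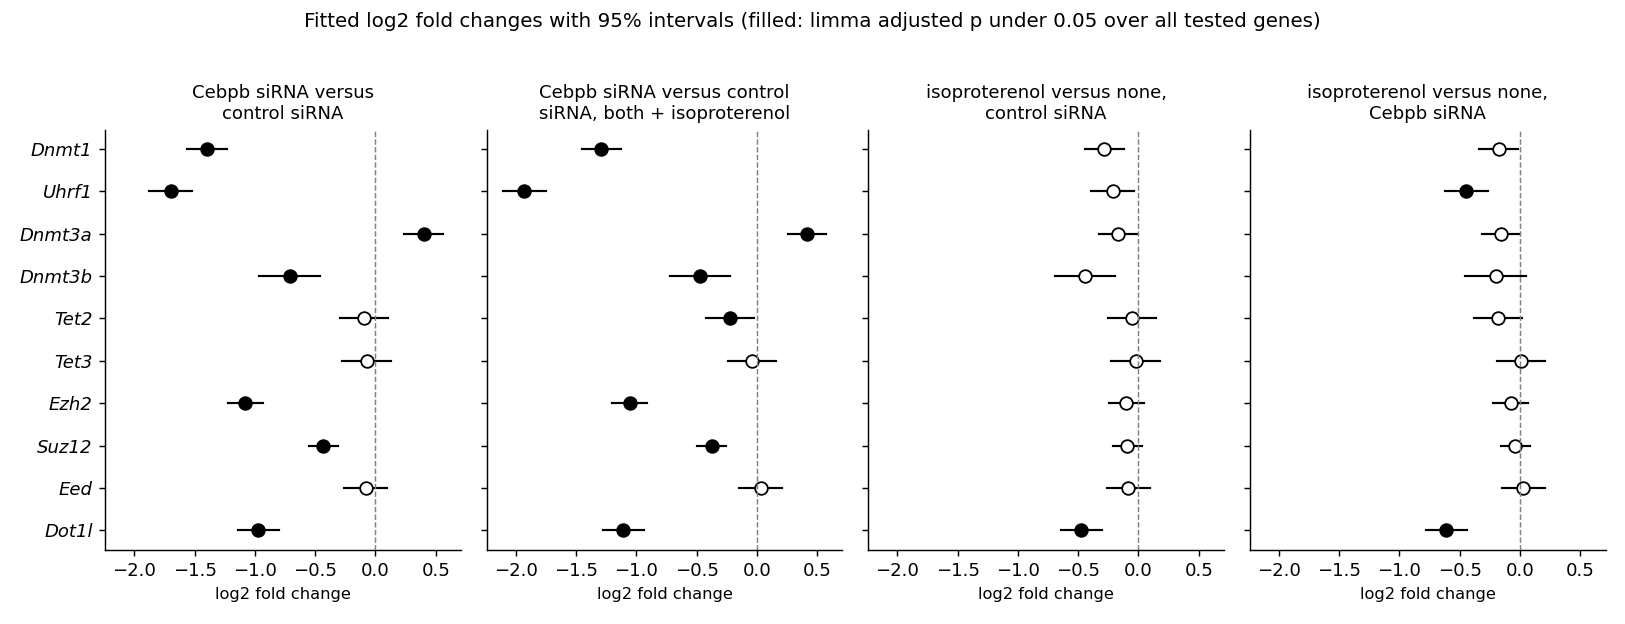
Fitted log2 fold change of each of the 10 genes (points) with its 95% interval (lines) in the 2 siRNA comparisons and the 2 isoproterenol comparisons, with filled points past the limma threshold over all 11044 tested genes. Fold changes reach −1.93 for the siRNA and −0.61 for isoproterenol.

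Isoproterenol lowered Dot1l in control siRNA cells and Dot1l and Uhrf1 in Cebpb siRNA cells, and no other of the 10 genes passed the test for it. In control siRNA cells 1 of 10 was called lower and none higher, against 0.453% and 1.17% of all tested genes. All 10 fold changes were below 0 there, though under other settings Tet3 reached 0.04 (experiment 2 alone) and Tet2 0.01 (1 library left out). Their median was −0.14 against a median of all tested genes near 0 (−0.0014), and 5 of 10 had an unadjusted p under 0.05, where 1215 of all 11044 tested genes had one. In Cebpb siRNA cells 2 of 10 were called lower and none higher, against 2.64% and 2.83% of all tested genes, with a median of −0.17.

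Dot1l fell 1.39-fold with isoproterenol in control siRNA cells (log2 −0.48 ± 0.08, limma adjusted p = 0.00153; −0.50 and −0.45 in experiments 1 and 2). It fell 1.53-fold in Cebpb siRNA cells (−0.61 ± 0.08, adjusted p = 4.43e-05; −0.41 and −0.81). Of all tested genes 0.435% had a more negative value in control siRNA cells and 0.444% in Cebpb siRNA cells. The call in control siRNA cells was lost in experiment 2 alone (−0.45, adjusted p = 0.469) and with no term for the experiment (0.0624).

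Uhrf1 fell 1.36-fold with isoproterenol in Cebpb siRNA cells (log2 −0.45 ± 0.09, limma adjusted p = 0.00243), with −0.24 in experiment 1 and −0.65 in experiment 2. In deposited RPM the 2 groups overlapped by 1 library, and after rescaling they did not. In control siRNA cells its log2 fold change was −0.22 ± 0.09 (adjusted p = 0.297). The call in Cebpb siRNA cells did not hold in experiment 1 alone (adjusted p = 0.284) or when the 8 compared libraries alone were fitted (0.0543).

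Dnmt1 and Dnmt3b came closest to the threshold among the rest in control siRNA cells. Dnmt1 had −0.28 ± 0.08 (limma adjusted p = 0.0809) and Dnmt3b −0.45 ± 0.12 (adjusted p = 0.0682), and Dnmt3a had −0.17 ± 0.08 (adjusted p = 0.399). The 3 subunits of PRC2 had log2 fold changes between −0.10 and 0.03 in both siRNA backgrounds, and none passed. Their values in control siRNA cells were −0.10 ± 0.07 for Ezh2, −0.09 ± 0.06 for Suz12 and −0.08 ± 0.09 for Eed, with 95% intervals of −0.24 to 0.04, −0.21 to 0.03 and −0.26 to 0.09. Tet2 and Tet3 had −0.05 ± 0.09 and −0.02 ± 0.10.

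The effect of isoproterenol did not differ between Cebpb siRNA and control siRNA cells past the test for any of the 10 genes. By limma's test of the difference itself 0 of 10 were called, and 0 of 10 had an unadjusted p under 0.05, where 702 of all 11044 tested genes had one. In all, 0.109% of tested genes were called higher and 0.118% lower in that test. The differences ran from −0.23 ± 0.12 for Uhrf1 to 0.24 ± 0.17 for Dnmt3b (95% intervals −0.48 to 0.02 and −0.11 to 0.60), so equal effects are not shown. The siRNA and isoproterenol comparisons share groups, and their values are therefore not independent of each other.

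Ratios of 2 genes within a library do not depend on how libraries are rescaled, and were used to set partners and paralogs against each other. They are ratios of 3′ read counts and carry no comparison of abundance between the genes. The Dnmt1 to Dnmt3a ratio was 0.651 ± 0.112 in Cebpb siRNA + isoproterenol and 0.659 ± 0.104 in Cebpb siRNA libraries, against 2.10 ± 0.157 in control siRNA + isoproterenol and 2.27 ± 0.191 in control siRNA libraries (SD, n = 4 each). The ratio of Ezh2 to Ezh1 was 2.69 ± 0.477 and 2.77 ± 0.652 in the 2 knockdown groups with and without isoproterenol, against 7.46 ± 1.05 and 8.10 ± 2.204 in the control siRNA groups with and without it. In each of these the knockdown and control siRNA libraries did not overlap.

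The same held between subunits of PRC2 and between Uhrf1 and its paralog. Without isoproterenol the log2 ratio of Ezh2 to Suz12 differed by −0.65 between Cebpb siRNA and control siRNA, that of Ezh2 to Eed by −0.999, and that of Uhrf1 to Uhrf2 by −1.51. Set against Pcna, the sliding clamp of the replication fork, Uhrf1 differed by −0.86, Dnmt1 by −0.56 and Ezh2 by −0.24, each without overlap. Pcna itself averaged 46.0 ± 6.64 RPM in Cebpb siRNA and 87.6 ± 9.25 RPM in control siRNA libraries (SD, n = 4 each). The median log2 fold change of 36 listed replication genes was −1.38 in that comparison, near the −1.40 of Dnmt1 and below the −1.08 of Ezh2. These differences therefore hold for Pcna alone and not for replication genes as a group. With isoproterenol the Uhrf1 to Pcna difference was −0.99, again without overlap, whereas Dnmt1 to Pcna (−0.35) and Ezh2 to Pcna (−0.12) overlapped. The Tet2 to Tet3 ratio differed by −0.02 without isoproterenol (0.16 in experiment 1 and −0.20 in experiment 2), with overlap, and by −0.18 with it, without overlap. In exact two-sided permutation tests 21 of 44 comparisons of 11 ratios had p = 0.0286, the smallest that 4 against 4 libraries allow, 10 of them between siRNAs without isoproterenol and 9 with it. The permutations did not keep the 2 experiments apart, and in all 21 the experiments differed in the same direction. After Benjamini-Hochberg adjustment over all 44 the smallest p was 0.0599, so none passed 0.05.

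**Figure D3:**
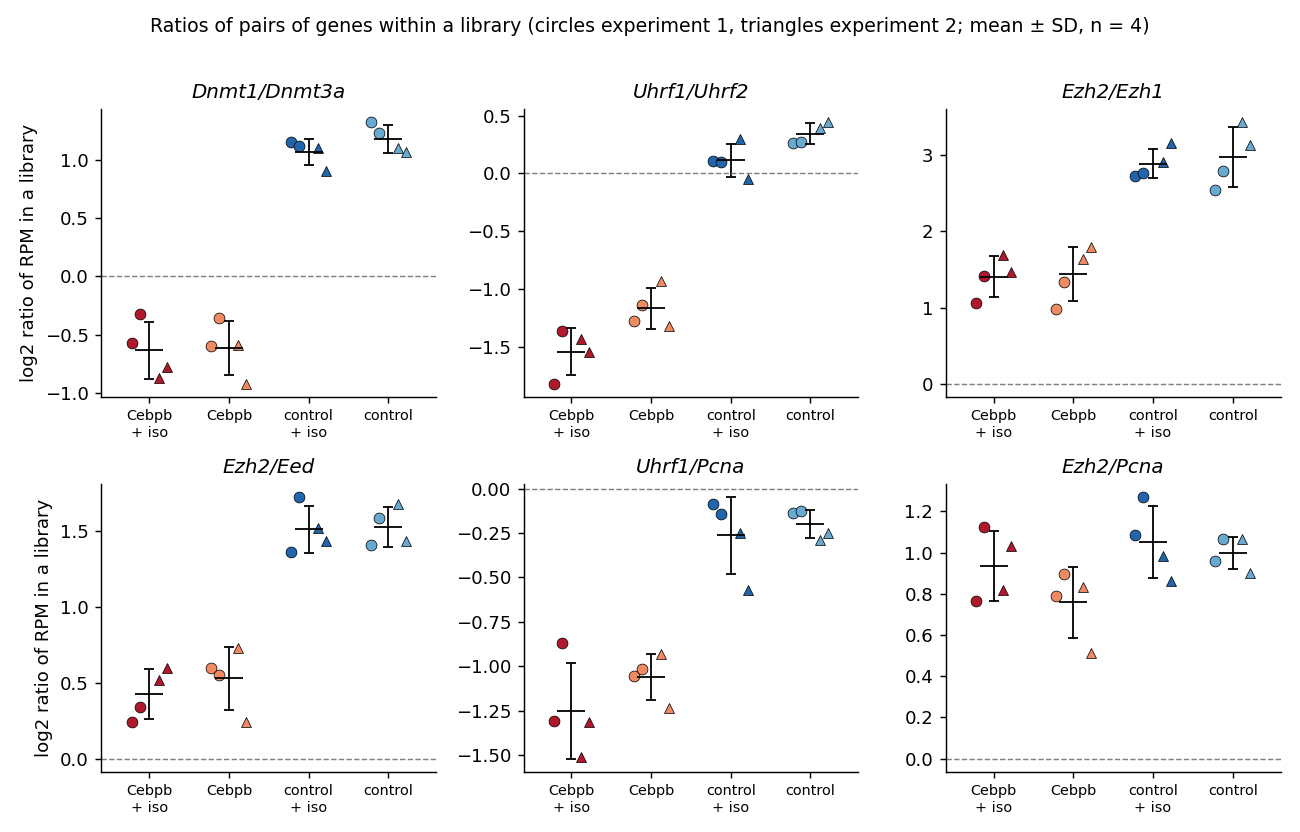
Log2 ratio of RPM of 2 genes within each library, for 6 of the 11 ratios, in the order Cebpb siRNA with isoproterenol, Cebpb siRNA, control siRNA with isoproterenol and control siRNA (circles experiment 1, triangles experiment 2, bars mean and SD of 4 libraries, dashed line equal reads). The Dnmt1 to Dnmt3a ratio lies below 0 in all 8 knockdown libraries and above 0 in all 8 control siRNA libraries, while the Ezh2 to Pcna ratio of the groups with isoproterenol overlaps.

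Genes of DNA replication, the setting in which Dnmt1 and Uhrf1 act, fell as a whole with Cebpb siRNA. All 36 listed replication genes were called lower, where 29.8% of all tested genes were without isoproterenol and 30.0% with it. The median log2 fold change of the 36 was −1.38 without isoproterenol and −1.55 with it, against 0.02 over all tested genes. The largest falls were those of Mcm3 (−2.73 ± 0.10) and Mcm10 (−2.09 ± 0.07), which serve the replicative helicase, and of Rrm2 (−1.98 ± 0.12), a subunit of ribonucleotide reductase. Their summed level was 686 to 850 RPM in Cebpb siRNA + isoproterenol and 788 to 1020.0 RPM in Cebpb siRNA libraries, against 2303 to 2580.0 RPM in control siRNA + isoproterenol and 2494 to 2826 RPM in control siRNA libraries. The part of this shift in the falls of Dnmt1, Uhrf1, Ezh2 and Suz12 was not tested. With isoproterenol in Cebpb siRNA cells, where Uhrf1 fell, 13 of the 36 were lower and none higher, against 2.64% and 2.83% of all tested genes. In control siRNA cells 1 of the 36 was lower, Mcm6 (−0.29 ± 0.07), against 0.453% of all tested genes.

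Of 18 other tested genes of DNA methylation 8 fell and 6 rose with Cebpb siRNA, where 29.8% of all tested genes were called lower and 31.5% higher. The siRNA counts and fold changes of this and the lists that follow are without isoproterenol. For these counts, the shares of all tested genes just given are the background. For isoproterenol the background is 2.64% lower and 2.83% higher in Cebpb siRNA cells, and 0.453% and 1.17% in control siRNA cells. A count near its background is no result about the list. Cdca7 and Hells form a nucleosome remodeller that maintenance methylation needs, and both fell (log2 −3.48 ± 0.16 for Cdca7 and −1.07 ± 0.06 for Hells). Cdca7 had 1.68, 2.54, 1.64 and 1.52 RPM in Cebpb siRNA + isoproterenol and 2.78, 2.05, 2.46 and 3.08 RPM in Cebpb siRNA libraries, against 29.9, 25.5, 22.1 and 23.0 RPM with control siRNA + isoproterenol and 35.2, 28.9, 27.3 and 31.7 RPM with control siRNA. Every knockdown library was far below every control siRNA library. Mbd3, which joins a deacetylase complex, fell (−1.24 ± 0.08), and the readers of methylated DNA Mbd2 (0.68 ± 0.07) and Zbtb33 (0.50 ± 0.11) rose. With isoproterenol in Cebpb siRNA cells 5 of the 18 fell, led by Cdca7 (−0.56 ± 0.16), Hells (−0.46 ± 0.06) and Cdca7l (−0.42 ± 0.11), and none of the 18 passed in control siRNA cells.

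Of 16 tested genes of the methyl donor cycle and of 2-oxoglutarate metabolism 6 fell and 4 rose with Cebpb siRNA, near the background of 29.8% and 31.5%. The serine hydroxymethyltransferases, which feed carbon units into the folate cycle, fell (log2 −2.14 ± 0.08 for Shmt2 and −1.29 ± 0.10 for Shmt1). Ahcyl2 (0.62 ± 0.10), Mat2b (0.41 ± 0.07), the regulatory subunit of methionine adenosyltransferase, and Idh1 (0.34 ± 0.09), which makes 2-oxoglutarate, rose. In Cebpb siRNA cells isoproterenol lowered 4 of the 16, against 2.64% of all tested genes, among them Shmt1 (−0.59 ± 0.10), Mtap (−0.38 ± 0.05) and Mthfd1 (−0.34 ± 0.09).

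Beyond Ezh2, Suz12 and Eed, 5 of 11 tested genes of PRC2 fell and 3 rose with Cebpb siRNA, against 29.8% and 31.5% of all tested genes. Jarid2, which recruits PRC2 to its sites, rose most (1.37 ± 0.07), followed by the accessory subunit Phf1 (1.16 ± 0.13) and by Ezh1. Lcor (−1.30 ± 0.11) and Lcorl (−0.57 ± 0.08), whose loci also encode PRC2-associated proteins, and the accessory subunit Phf19 (−0.79 ± 0.11) fell. Phf19 (−0.54 ± 0.11) and Rbbp7 (−0.27 ± 0.06), a histone-binding subunit, fell with isoproterenol in Cebpb siRNA cells.

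Of 19 tested genes of Polycomb repressive complex 1, which binds the mark of PRC2, 7 fell and 7 rose, near the 29.8% and 31.5% of all tested genes. The ubiquitin ligases Rnf2 (0.73 ± 0.08) and Ring1 (0.63 ± 0.18) and the subunit Phc1 (0.78 ± 0.14) rose, and Bmi1 (−1.30 ± 0.13) and the chromodomain genes Cbx6 (−1.13 ± 0.11) and Cbx2 (−1.05 ± 0.20) fell. None of the 19 passed for isoproterenol.

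Of 13 tested partners of Dot1l and of the elongation complexes around it, 4 fell and 2 rose with Cebpb siRNA, where the background was 29.8% and 31.5%, and none passed for isoproterenol in either siRNA background. Ell2, an elongation factor, had −1.64 ± 0.06, Mllt3, which brings Dot1l to acetylated chromatin, had −0.72 ± 0.12, and Psip1 had −0.61 ± 0.08. Aff1 (0.58 ± 0.09) and Ccnt1 (0.29 ± 0.05), parts of the super elongation complex, rose.

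Of 39 other tested genes of histone methyltransferase families, not all of them shown to be active enzymes, 20 fell and 7 rose with Cebpb siRNA, with a median of −0.23. Of 19 histone demethylases 5 fell and 10 rose, with a median of 0.29. Over all tested genes 29.8% fell and 31.5% rose, and a difference between these lists was not tested. Kmt5c (−0.90 ± 0.15), Nsd2 (−0.90 ± 0.08) and Suv39h2 (−0.82 ± 0.11) fell most, and Prmt2 (0.88 ± 0.14), Kmt5b (0.80 ± 0.08) and Kmt2e (0.43 ± 0.05) rose most. Among demethylases Kdm5b, which removes methyl groups from lysine 4 of histone H3, rose by 2.25 ± 0.14, Kdm4b by 1.16 ± 0.19 and Kdm7a by 0.84 ± 0.09. Kdm1b (−1.69 ± 0.25), Kdm3b (−0.43 ± 0.09) and Kdm5a (−0.42 ± 0.06) fell. With isoproterenol in both groups Kdm3b did not pass (−0.03, limma adjusted p = 0.811). Isoproterenol in control siRNA cells raised Prmt2 (0.71 ± 0.14), Kdm5b (0.68 ± 0.14) and Kdm7a (0.48 ± 0.09) and lowered Kdm3b (−0.36 ± 0.09). In Cebpb siRNA cells it raised Prmt2 (0.47 ± 0.14), Kmt2d (0.35 ± 0.09) and Kdm7a (0.55 ± 0.09). Kdm3b in control siRNA cells (limma adjusted p = 0.04945) and Prmt2 in Cebpb siRNA cells (0.04889) passed narrowly.

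**Figure D4:**
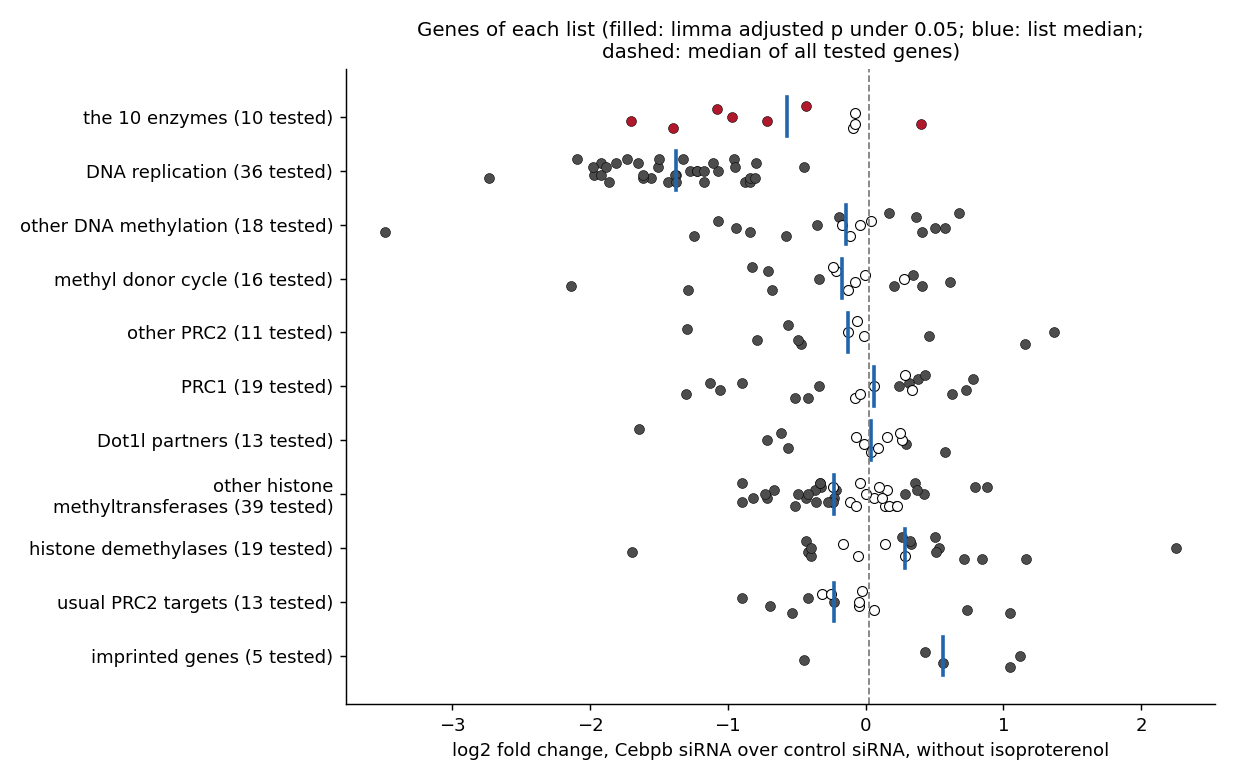
Log2 fold change of every tested gene of each list, Cebpb siRNA over control siRNA without isoproterenol (points, filled where the limma adjusted p is under 0.05, the 10 enzymes in red), with the median of each list (blue) and of all tested genes (dashed). All 36 replication genes lie below 0, and the 10 enzymes have a median of −0.57.

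Most listed genes that these marks often silence did not pass the filter on low values. Neither did most gene entries of any kind, of which 11044 of 52636 passed it. Whether the marks silence the listed genes here was not tested. Of 20 germline genes that DNA methylation commonly silences 1 (Brdt) passed it, and no comparison called it. Of 31 genes that PRC2 commonly marks 13 passed the filter, and 5 fell and 2 rose with Cebpb siRNA, against 29.8% and 31.5% of all tested genes. The cell cycle inhibitor Cdkn1c (1.05 ± 0.20) and Hoxc6 (0.74 ± 0.11) rose, and Pax6 (−0.89 ± 0.15), Hoxa5 (−0.69 ± 0.19) and Hoxc4 (−0.53 ± 0.10) fell. Of 17 imprinted genes 5 passed the filter, too few to speak for imprinted genes. With Cebpb siRNA 4 of the 5 rose, against 31.5% of all tested genes. They were Peg10 (1.12 ± 0.22), Cdkn1c, which is in both lists, Igf2r (0.56 ± 0.20) and Zrsr1, while Impact fell (−0.45 ± 0.11). Peg10 and Hoxa5 averaged 1.19 and 1.42 RPM over all libraries, near the floor of 1 RPM. Experiments 1 and 2 gave 1.54 and 0.70 for Peg10 and −1.01 and −0.37 for Hoxa5.

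By correlation over the 16 rescaled libraries, a description in which the libraries of the 2 siRNAs form separate clusters, Dnmt1, Uhrf1, Ezh2 and Suz12 had pairwise Pearson r of 0.923 to 0.982. Each of them had r between 0.844 and 0.934 with Dnmt3b and with Dot1l, and those 2 had 0.904 with each other. Dnmt3a had r of −0.677 with Uhrf1 and −0.668 with Dnmt1. In a search of the 6883 genes that averaged 10 RPM or more, Rrm1 and Anln (r = 0.994 each) were among those most like Uhrf1, and those most like Dnmt1 were Top2a (0.996), Cdca8 (0.995) and Incenp (0.994). Ezh2 was most like Usp1 and Clspn (0.993 each) and Tacc3 (0.992), and Suz12 most like Rbl1 (0.975), Ncapg2 (0.972) and Ube4b (0.971).

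Dot1l had other neighbours, Lpl (0.983), Efr3b (0.982) and Tomm70a (0.970). Dnmt3b was most like Pdcd11 (0.960), Cad (0.959) and Kif4 (0.942), and Dnmt3a most like Galnt7 (0.943), Rela (0.935) and Cadm1 (0.933). The genes that the siRNA did not split had looser matches, with Setdb1 (0.825), Kctd20 (0.819) and Myof (0.792) for Tet2, Vps54 (0.835), Tmtc3 (0.768) and D5Ertd579e (0.728) for Tet3, and Yipf4 (0.879), Oat (0.874) and Cbfb (0.820) for Eed.

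The 3′ UTRs of the 10 genes were searched for the word AACTTGT, a word taken from earlier work on these libraries. No relation of it to levels was computed here, and the search is a description. It stood once in Tet2 (chr3:133463952-133463958) and once in Ezh2 (chr6:47530281-47530287), on the transcript strand of the longest annotated 3′ UTR (GENCODE vM21, GRCm38), and is shown in capitals with its flanks.
Tet2: tagtttggttAACTTGTtagggttttt
Ezh2: agaatacttgAACTTGTtgttgaatca
The word was in 14.9% of 10111 tested genes with a 3′ UTR, and in 24.9% and 4.91% of those with 3′ UTRs about as long as those of Tet2 and Ezh2. The longest 3′ UTRs of Dnmt1, Uhrf1, Dnmt3a, Dnmt3b, Tet3, Suz12, Eed and Dot1l did not have it. Among genes with 3′ UTRs about as long as theirs, from 3.33% (for Dnmt1) to 50.7% (for Dnmt3a) had it. The siRNA itself was known by product only, without its sequence, and the part of the word in the fall of Ezh2 was not tested.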

How the data were processed

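Total RNA of 16 cultures was made into libraries of 3′ end reads with a QuantSeq kit (per the labels' protocols). The submitters' processing notes name STAR 2.5.3a and GRCm38. In the sources used here no counting tool or use of strand is given. The deposited values are log2 reads per M sequenced reads, with 1 RPM or less listed as 0. This was read from the values: 100% of them gave whole reads within 0.1 read. The floor equals 9 to 25 reads, and 5.81 to 15.9 M reads per library fell on genes.

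Libraries were rescaled by a trimmed mean of log ratios (30% by ratio, 5% by level) and given a common floor. The fit took genes that exceeded it in 4 or more libraries, and was made with limma 3.58.1 (trend and robust, R 4.3.3), with the 4 groups and the experiment as terms. P-values were adjusted by Benjamini-Hochberg over all 11044 genes, with a threshold of 0.05. Errors are SEs of log2 fold changes or SDs of unscaled RPM, and few reads limit the precision of low genes. Ratios were tested by exact permutation in Python 3.11.15. Of all symbols 106 occur more than once, none of them a member.

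The members and gene lists were chosen with earlier results of these data known. Named from each list were up to 3 genes in each direction past the threshold with 1 sign in both experiments, by size, and up to 3 past it under isoproterenol. Genes that fall outside the rule (Uhrf2, Brdt, Zrsr1, Tet1, Dnmt3aos and E230029C05Rik) were named to complete a count or a locus. A few genes that the rule names are not reported here. Promoters come from RefSeq, and 3′ UTRs from GENCODE vM21. Alternatives were other scalings, filters and pseudocounts, no experiment term, a replicate block, each experiment alone, the compared libraries alone, no trend, and each library left out.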

Additional observations from a re-analysis of the deposited data

Results flagged for a closer look

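Of 40 sets of 4 libraries (10 genes in 4 groups) and 44 such sets for the ratios, 1 had a library that stood apart by Dixon's test, which chance alone gives in about 1 in 20. Suz12, the PRC2 scaffold, had 174, 174 and 173 RPM in 3 Cebpb siRNA + isoproterenol libraries and 165 RPM in replicate 1 of experiment 2. The gap to the nearest of the others was 0.836 of the whole range on the log2 scale of deposited values, just past the 95% limit for 4 libraries. After rescaling, the 4 libraries had 178.1, 172.3, 166.5 and 175.6 RPM in order of experiment and replicate, and the lowest stood less apart. Without that library the fall of Suz12 with Cebpb siRNA under isoproterenol was −0.36 on the log2 scale (limma adjusted p = 6.46e-05), against −0.38 with it.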

How the results depend on the processing

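Of 1030 values of the 10 genes under alternatives 6 came to pass the threshold and 17 no longer passed it. Another 10, not called in either fit, changed sign and moved by at least the SE of the fitted log2 fold change. The other 997 kept their side of the threshold. Any of these 997 that changed sign was not called and moved by less than that SE. No called value changed sign. Ratios were judged by another measure, and of 440 ratio values 432 moved by less than the pooled SD of the 2 groups compared. Leaving out 1 library at a time gave 7 to 8 called genes for Cebpb siRNA without isoproterenol (7 with all libraries), 7 to 8 with it (8), 1 for isoproterenol in control siRNA cells (1), 2 in Cebpb siRNA cells (2) and 0 for the difference (0). The isoproterenol counts depended on the model. In control siRNA cells 0 of the 10 genes were called with no experiment term and 0 in experiment 2 alone, 2 with neither trend nor robust estimation (Dnmt3b was added, adjusted p = 0.0155) and 4 with the 8 compared libraries alone, where Dnmt1 (0.00158), Dnmt3a (0.0331) and Dnmt3b (0.0268) passed as well. In Cebpb siRNA cells 1 was called in experiment 1 alone and 1 with the compared libraries alone. Each experiment alone has fewer libraries, and for the other settings the cause was not tested.

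Over all genes, 179 were called for isoproterenol in control siRNA cells, but 46 with no experiment term, 108 and 19 in experiments 1 and 2 alone, 112 without trend, 409 with the compared libraries alone and 98 to 138 with 1 library left out. In Cebpb siRNA cells the count was 605, but 197 with no experiment term, 250 and 145 in the experiments alone and 252 with the compared libraries alone. For the difference it was 25, but 10 with no experiment term and 12 and 2 in the experiments alone. Without rescaling, 41.0% of the called genes were higher with Cebpb siRNA (51.4% rescaled), 84.3% for isoproterenol in control siRNA cells (72.1%) and 74.8% in Cebpb siRNA cells (51.7%).

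A replicate block left the counts of called genes at 7 and 8 for the siRNA, 1 and 2 for isoproterenol and 0 for the difference. Replicate numbers did not pair the libraries: over 12 pairs of groups the deviations of same-numbered libraries had r of −0.227 to 0.282 (median −0.0111), over 0.1 in 3. Depth limits Dnmt3b most, which had 34 to 171 reads per library.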
